A study of Mus musculus with 35 samples.

Results

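The genes described here are Abca5, Abca6, Abca8a, Abca8b and Abca9, which lie next to each other on mouse chromosome 11. They are 5 of the 53379 genes in the count table, found by matching each deposited Ensembl identifier to its symbol in the GENCODE M21 annotation, and all 5 were found. The group was chosen by values of these data: the lower CPM of Abca6 after treatment in monocytic myeloid-derived suppressor cells (M-MDSC) of the spleen put it forward, where CPM is the count of a gene scaled to the library total. Values of that contrast are therefore given as a description with no test, as are other contrasts that reuse those libraries.

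Myeloid-derived suppressor cells (MDSC) are immature myeloid cells that expand in cancer and restrain T cells. RNA was sequenced from 8 female C57BL/6 mice, for which the methods give an age range of 6 to 12 weeks, carrying orthotopic pancreatic tumors of T110299, a single cell line derived from a genetically engineered mouse with spontaneous pancreatic cancer. In the mouse of origin, Ptf1a-Cre drove recombination in the pancreatic lineage, and the hosts and their myeloid cells were wild type. Of these mice, 4 received poly(I:C)c intravenously on days 18 and 20 after implantation, a double-stranded RNA analog (50 µg) complexed with the carrier polyethylenimine, and 4 received glucose and are labeled untreated. Cells were taken on day 21. PMN-MDSC (CD11b+Ly6CloLy6G+) and M-MDSC (CD11b+Ly6ChiLy6G-) were sorted from spleen and tumor, and 4 tumors of untreated mice were lysed whole as bulk tumor. Each group has 4 libraries, with these exceptions: treated spleen PMN-MDSC have 3, and of the 4 treated tumor M-MDSC libraries 3 were used, because the other holds 10 counts.

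ABCA proteins are full-length ATP-binding cassette transporters: a single chain carries a pair of membrane domains and a pair of nucleotide-binding domains, and members of the family move lipids across or between membrane leaflets. Each nucleotide-binding domain grips ATP with a glycine-rich loop, the Walker A motif. The 5 genes of this cluster arose by tandem duplication and are known as the A6-like subfamily. ABCA6 and ABCA9 have been described in human macrophages as genes that respond to cholesterol, ABCA5 as a transporter of lysosomes and late endosomes, and the mouse genes Abca8a and Abca8b are copies of what is a single gene in humans.

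On GRCm38 the cluster spans 405.527 kb of chromosome 11, from 109932190 to 110337716, and all 5 genes are read from the minus strand. In order of coordinate they are Abca8b (109932190 to 109995845), Abca8a (110025634 to 110095978), Abca9 (110100749 to 110168196), Abca6 (110176820 to 110251776) and Abca5 (110269369 to 110337716). The gaps between neighbors are 29.788, 4.77, 8.623 and 17.592 kb, the smallest being that between Abca8a and Abca9. The longest coding transcript of each gene has 39 exons. The coding sequences are 4860 bases long in Abca8b and Abca8a, 4869 in Abca9, 4872 in Abca6 and 4926 in Abca5.

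A pattern search of the translated coding sequences found 2 Walker A matches in each gene, in exon 12 and exon 31. The first match is shown with 18 bases on either side, read on the coding strand and within exon 12, because it shows how alike the genes are and where a read could or could not tell them apart. Capitals mark the 24 bases that encode the ATP-binding loop.
Abca8b (chr11:109969087-109969146): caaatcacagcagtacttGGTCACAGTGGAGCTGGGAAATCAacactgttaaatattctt
Abca8a (chr11:110071445-110071504): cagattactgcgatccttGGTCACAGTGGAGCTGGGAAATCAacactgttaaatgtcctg
Abca9 (chr11:110146933-110146992): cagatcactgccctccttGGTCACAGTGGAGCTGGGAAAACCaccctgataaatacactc
Abca6 (chr11:110220103-110220162): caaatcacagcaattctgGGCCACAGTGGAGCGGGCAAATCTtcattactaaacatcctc
Abca5 (chr11:110306270-110306329): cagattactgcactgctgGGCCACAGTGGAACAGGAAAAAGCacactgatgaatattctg
The 24 bases are the same in Abca8b and Abca8a, differ from them at the end of the loop in Abca9, and differ most in Abca5, which shares 17 of 24 bases with Abca8b. Over whole aligned coding sequences, Abca8b and Abca8a were 76.8% identical, Abca9 was 73.6% and 73.8% identical to Abca8b and Abca8a, and Abca9 and Abca6 were 70.1% identical. Abca5 was the most distant, at 64.1% to 65.5%. Runs of 50 identical bases were rare: they made up 1.42% of the windows of Abca8b and 1.64% of those of Abca8a for that pair, 0.162% of Abca9 and 0.243% of Abca6 for that pair, and 0 in the other pairs. Reads from the adjacent genes could thus be told apart over nearly all of their length, with the least certainty for Abca8a against Abca8b. An antisense gene, Gm11697, lies within Abca8b, and counting was by strand.

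The stretches upstream of Abca9 and Abca5 are shown because Abca9 led the counts of the cluster in MDSC and Abca5 in bulk tumor. They come from RefSeq on GRCm38.p6, where 4 of the 5 genes had an entry (all but Abca6), and run up to the annotated GENCODE start. Capitals mark CpG dinucleotides.
Abca9 (chr11:110168197-110168403): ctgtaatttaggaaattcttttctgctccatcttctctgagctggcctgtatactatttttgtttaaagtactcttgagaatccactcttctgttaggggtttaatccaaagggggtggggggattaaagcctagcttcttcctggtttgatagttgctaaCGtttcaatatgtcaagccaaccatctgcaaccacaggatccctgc
Abca5 (chr11:110337717-110337966): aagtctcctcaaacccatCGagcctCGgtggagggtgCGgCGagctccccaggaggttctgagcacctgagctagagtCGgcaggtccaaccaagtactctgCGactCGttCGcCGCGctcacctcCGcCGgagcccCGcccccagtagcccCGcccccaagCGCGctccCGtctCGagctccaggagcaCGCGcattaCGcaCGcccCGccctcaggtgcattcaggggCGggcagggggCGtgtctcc
The Abca5 stretch holds 25 CpG dinucleotides and 69.2% G and C, and the Abca9 stretch holds 1 CpG and 42.5%. Over 32851 promoters, the median share of G and C in the 250 bases before the start was 52.4%, and over that full window it was 48.8% for Abca8b, 43.2% for Abca8a and 44.4% for Abca9. The motif GAGGAA, the core bound by the myeloid factor PU.1, was searched on both strands of the 250-base windows. It was found at position -42 from the RefSeq start of Abca9, at -89 in Abca8a and at -190 and -84 in Abca8b, with no match in Abca5. The match of Abca9 lies within the last 43 bases of its window, which GENCODE places inside the gene and which are not printed. Of all promoters, 23.3% hold it. GAAANNGAA, the core of the interferon response element, had no match in these 4 windows and one in 7.13% of all promoters.

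The 30 MDSC libraries hold 793070 to 4357105 counts and the bulk tumor libraries 3771590 to 8886115, so 3 counts are worth 3.78 CPM in the smallest library and less in the others. The treatment labels were borne out by the interferon-stimulated genes Ifit3, Isg15 and Oas1g, each higher in every treated library than in every untreated library of the same cell type and compartment. Markers of the sorted cells went only partly with the labels. Ly6g, the gene behind the PMN-MDSC gate, was at 34.5 to 84.7 CPM in PMN-MDSC from spleens of untreated mice but at 0 to 9.19 CPM in those from tumors of untreated mice. There, the summed level of 8 neutrophil markers was 412 to 2413 CPM against 11607 to 24227 CPM in spleen, and 16 red pulp macrophage markers summed to 3921 to 4989 CPM. The names PMN-MDSC and M-MDSC below therefore mean the sort gates. A pair of libraries stood apart from their groups. Library 2 of the treated tumor M-MDSC had 10362 CPM of the red pulp macrophage list against 2664 and 5128 in the other two, and PMN-MDSC library 1 from spleens of untreated mice had 1783 CPM of a dendritic cell list against 540 to 715. Values without them were computed after the data had been seen and are given beside the results that rest on them.

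Abca9 was by far the most counted gene of the cluster in sorted MDSC, and Abca5 took that place in bulk tumor. In untreated M-MDSC from spleen, Abca9 stood at 184, 144, 174 and 191 CPM, and in untreated M-MDSC from tumor at 125, 95.7, 117 and 140 CPM. Untreated PMN-MDSC from tumor held 169, 105, 129 and 128 CPM, a range that overlaps that of the tumor M-MDSC. Untreated PMN-MDSC from spleen were lower, with 16.4, 15.9 and 18.3 CPM in 3 libraries and 82.8 CPM in library 1, which lay apart from them. Bulk tumor held 13.2, 18.8, 14 and 11.3 CPM, below every untreated MDSC library from tumor.

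**Figure D1:**
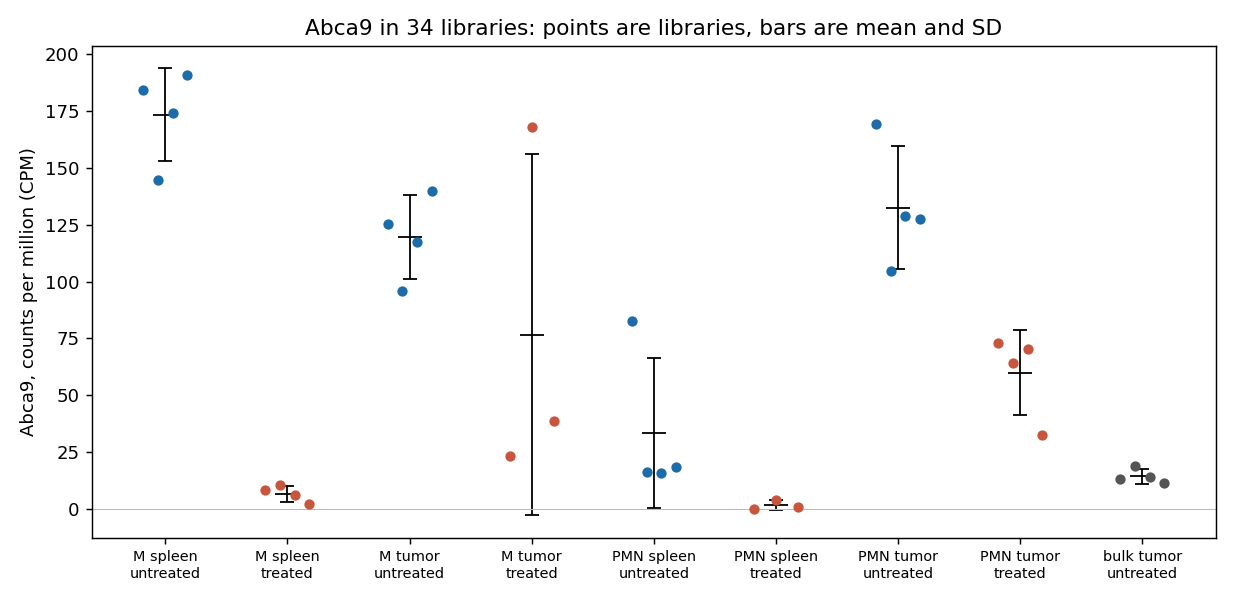
CPM of Abca9 on the vertical axis for the 9 groups, with a point for each library and a bar for the mean ± SD. Untreated M-MDSC from spleen sit at 144 to 191 CPM and treated ones at 2.21 to 10.5 CPM, and a lone treated tumor M-MDSC library lies at 168 CPM.

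Per kilobase of exon, the mean Abca9 level was highest in untreated M-MDSC from spleen, with 21.5 ± 2.54 CPM per kb (SD, n = 4). Untreated PMN-MDSC from tumor followed with 16.5 ± 3.34 (SD, n = 4) and untreated M-MDSC from tumor with 14.9 ± 2.30 CPM per kb (SD, n = 4), neighbors that did not differ beyond their spread. The treated tumor groups came next, M-MDSC with 9.51 ± 9.86 (SD, n = 3) and PMN-MDSC with 7.45 ± 2.30 CPM per kb (SD, n = 4), and their ranges overlapped. Without library 2 the treated tumor M-MDSC stood at 3.84 ± 1.36 CPM per kb (SD, n = 2), below treated tumor PMN-MDSC. Next in the order over all libraries were untreated PMN-MDSC from spleen with 4.14 ± 4.10 (SD, n = 4; 2.10 ± 0.156, n = 3, without library 1), bulk tumor with 1.78 ± 0.397 (SD, n = 4), treated M-MDSC from spleen with 0.840 ± 0.438 (SD, n = 4) and treated PMN-MDSC from spleen with 0.199 ± 0.271 CPM per kb (SD, n = 3).

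Abca6 is the neighbor upstream of Abca9. It stood at 21.1, 18.6, 31 and 32.1 CPM in the untreated spleen M-MDSC, a mean of 4.76 ± 1.27 CPM per kb (SD, n = 4). In untreated M-MDSC from tumor it was at 2.75, 6.07, 8.32 and 3.78 CPM, so the compartments did not overlap. Abca9 did not overlap between them either, with 144 CPM as the lowest spleen and 140 CPM as the highest tumor value, and 27.6% of all genes were higher in spleen without overlap. The pooled counts gave a ratio of 4.45 between spleen and tumor, with a 95% exact interval of 3.26 to 6.20 that, like the other intervals here, covers counting error only, since reads amplified by PCR without molecular identifiers are not independent molecules. For Abca9 the same ratio was 1.5 with an interval of 1.39 to 1.63. Untreated PMN-MDSC held less Abca6, with 5.57, 0.996, 0.339 and 1.61 CPM in spleen and 0.607, 2.71, 0.40 and 0.474 CPM in tumor. Between untreated spleen M-MDSC and spleen PMN-MDSC the ratio of Abca6 was 11.1 (7.57 to 16.9), and 27.4 (13.7 to 64.2) without library 1 of the PMN-MDSC, which holds 21 of their 29 counts. The contrasts with spleen M-MDSC reuse libraries that chose the genes, so their values stand as levels with no test.

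**Figure D2:**
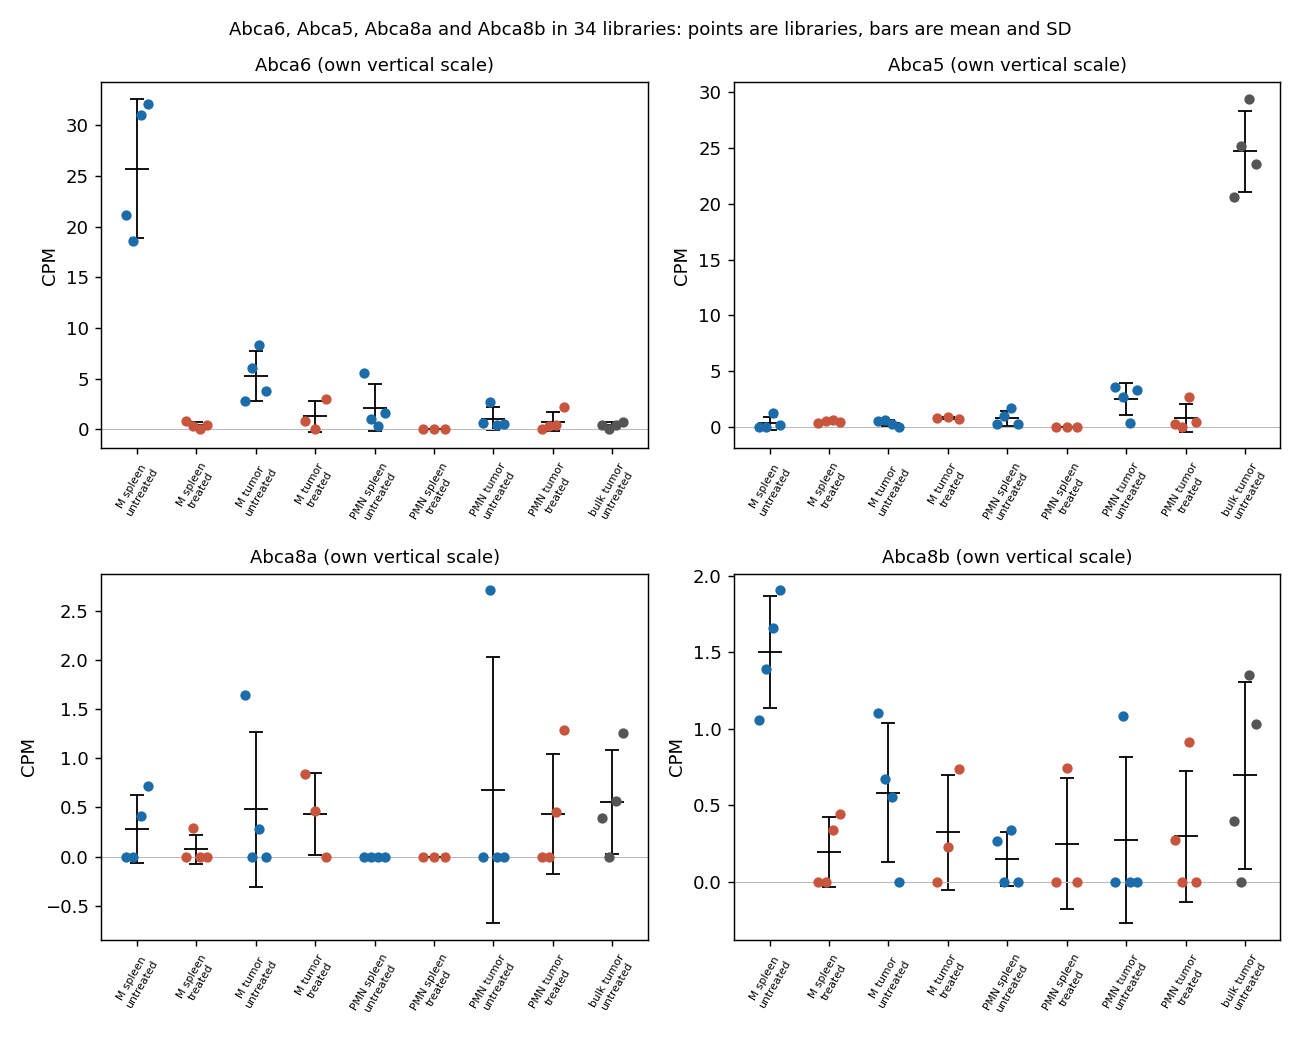
CPM of Abca6, Abca5, Abca8a and Abca8b in each library of the 9 groups, each panel on its own vertical scale, with points for libraries and bars for the mean ± SD. Abca6 is highest in untreated M-MDSC from spleen (18.6 to 32.1 CPM), Abca5 in bulk tumor (20.6 to 29.4 CPM), and Abca8a reaches at most 2.71 CPM.

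Abca8a and Abca8b were near the limit of counting in every group. Abca8b was at 1.05, 1.39, 1.66 and 1.90 CPM in untreated M-MDSC from spleen, from 17 counts in all, and at 0 to 1.35 CPM in the other groups. Abca8a reached 2.71 CPM in 1 library of untreated PMN-MDSC from tumor, from 5 counts, and had 0 counts in all 7 PMN-MDSC libraries from spleen, where up to 3 counts per library would have been allowed by chance of counting. In bulk tumor the levels were 0.397, 0, 0.563 and 1.26 CPM for Abca8a and 0.397, 0, 1.35 and 1.03 CPM for Abca8b.

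As a share of all counts over the 5 genes, Abca9 took 85.7% (exact 95% interval 84.1 to 87.1) of 2197 counts in untreated M-MDSC from spleen and Abca6 13.2%, with 10.2% to 14.9% for Abca6 in single libraries. In untreated M-MDSC from tumor Abca6 took 4.88% of 963 counts, with 2.09% to 6.56% in single libraries, a range below that of spleen. In untreated PMN-MDSC from tumor Abca9 took 96.9% of 1097 counts and Abca6 0.729%. In bulk tumor Abca5 took 61.5% (58.6 to 64.3) and Abca9 33.7% (31 to 36.5) of 1168 counts. The make-up of the cluster thus differed between the sorted cells and the whole tumor more than among the sorted groups.

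**Figure D3:**
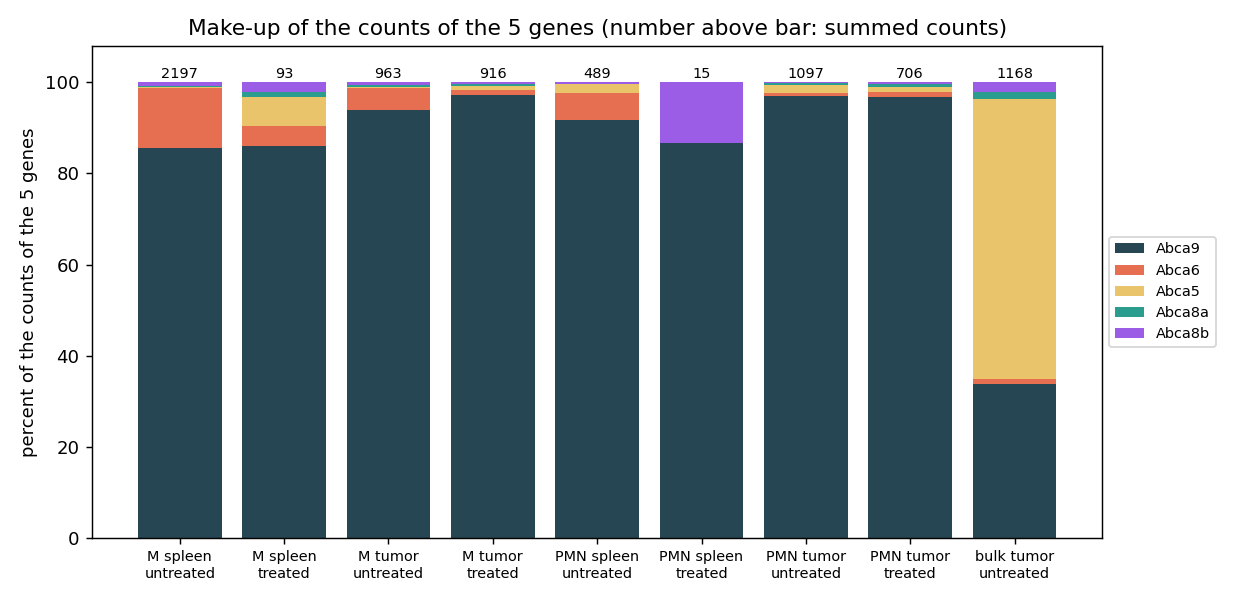
Percent of the summed counts of the 5 genes that each gene took in the 9 groups, as stacked bars from 0 to 100, with the summed counts above each bar. Abca9 takes 85.7% to 97.3% of the counts in every MDSC group and 33.7% in bulk tumor, where Abca5 takes 61.5%.

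In M-MDSC from spleen, the contrast that chose the genes, treatment went with lower counts of both main genes. Abca9 was at 8.28, 10.5, 6.08 and 2.21 CPM in the treated libraries, each far below the lowest untreated library. The log2 fold change was -4.55 (SE 0.31), and the pooled counts gave 24.7-fold lower levels (19.7 to 31.3). For Abca6 only 2, 1, 0 and 1 counts were found in the treated libraries against 40, 40, 75 and 135 in the untreated ones, a pooled ratio of 76.1 (29.4 to 281), and 118 (32.3 to 977) without treated library 1. Abca8b had 2 counts against 17, a ratio of 8.92 (2.12 to 79.6), and 14.2 (2.23 to 595) without treated library 4, while Abca5 had 6 counts against 4 and Abca8a 1 against 4, too few for a direction. Of all genes tested in this contrast, 2.47% passed an adjusted p-value under 0.001 with a change of at least 2-fold, and 16.6% were lower in treated libraries with no overlap between the groups. Of the 5 genes, Abca9 and Abca6 passed the filter on low counts, and both were lower without overlap, which the choice of the genes makes no finding. Treated libraries still held 80 counts of Abca9 among the 93 of the cluster, 86.0%, close to its share in untreated ones. Marker lists moved as well: the dendritic cell list went from 581 to 1359 CPM down to 186 to 281 CPM, with Cd209a at 0 in all 4 treated libraries, and the red pulp macrophage list went from 706 to 991 CPM up to 1110 to 1544 CPM. Classical monocyte markers went from 6876 to 9040 down to 4514 to 5619 CPM and erythroid markers from 28.3 to 60.5 down to 0.675 to 3.16 CPM, while marginal zone macrophage markers went from 66.4 to 99.7 up to 279 to 587 CPM and endothelial markers from 29.5 to 39.3 up to 131 to 295 CPM. These are summed levels, and the median log2 fold change of the 6 classical monocyte markers was 0.04. The part of these lists in the result was not tested. Fewer cells of a type that carries a transcript and less of it per cell cannot be told apart in bulk libraries such as these.

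The libraries of splenic PMN-MDSC did not enter the choice of the genes, and Abca9 was lower there after treatment too. The labels number the mice of the sorted fractions alike, so these mice are not separate from those that chose the genes. The 3 treated libraries held 0, 11 and 2 counts of Abca9, or 0, 4.08 and 0.720 CPM, against 33 to 312 counts in the untreated ones, with no overlap. The pooled counts gave 20.5-fold lower levels (11.9 to 38.8), and edgeR's quasi-likelihood test gave a log2 fold change of -3.88 (SE 0.99, adjusted p = 0.0384). This passes an adjusted p-value of 0.05 but not the stricter rule of 0.001 with a change of at least 2-fold. Of all genes, 5.52% were lower at 0.05, 0.0413% passed the stricter rule, and 24.2% were lower without overlap. Of the 5 genes, Abca9 was the 1 that passed the filter on low counts, and it did so through the 449 untreated counts, of which 312 are in library 1, against 13 treated ones. Its entry thus leaned on the group where it is high, so the call is no support beyond the levels. Without untreated library 1, which held 82.8 CPM, the pooled ratio was 9.18 (5.19 to 17.7) and the log2 fold change -2.95 (adjusted p = 0.0567 by edgeR), and the 0.05 threshold was also missed without treated library 1 (-3.45, adjusted p = 0.0662), treated library 3 (-3.44, adjusted p = 0.136) or untreated library 4 (-4.10, adjusted p = 0.0657). Without treated library 2, which holds 11 of the 13 treated counts, the pooled ratio was 82.3 (22.6 to 681) and the log2 fold change -5.81 (adjusted p = 0.0417 by edgeR).

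Abca6 was at 0 counts in all 3 treated PMN-MDSC libraries from spleen, against 21, 2, 1 and 5 counts in the untreated ones. The exact 95% interval of the pooled ratio put it at least 4.38-fold lower. Without the filter on low counts edgeR gave an adjusted p of 0.0195 for this gene, at a threshold of 0.05 that 3.95% of genes passed downward in that fit and short of the stricter rule that 2.85% of genes passed in that fit. Of its 29 untreated counts, 21 came from library 1. Without that library the interval started at 1.49-fold and the adjusted p was 0.284 by edgeR, so the call rests on it. Abca5 likewise had 0 counts in the treated libraries against 1, 2, 5 and 1 in the untreated ones, with an adjusted p of 0.295 in the same unfiltered edgeR fit. Markers of other cells moved in the same libraries. The dendritic cell list went from 540 to 1783 CPM down to 24.1 to 76.5 CPM, with Flt3 and Xcr1 at 0 in every treated library, and 4 of its 4 tested genes were lower at an adjusted p under 0.05. The red pulp macrophage list went from 1306 to 2913 down to 566 to 813 CPM, with 11 of 16 tested genes lower, and Ly6g went from 34.5 to 84.7 up to 226 to 335 CPM. Erythroid markers went from 59.3 to 175 down to 0.360 to 7.04 CPM, endothelial markers from 28.5 to 75.9 down to 10.8 to 15.2 CPM, patrolling monocyte markers from 1620 to 2342 down to 836 to 1420 CPM, and classical monocyte markers from 2700 to 3643 up to 3908 to 5976 CPM. The rise of the classical monocyte list was in its sum. Of 6 such markers tested, 2 were lower and 1 higher at an adjusted p under 0.05 by edgeR (median log2 fold change -0.44). Of all genes, 5.52% were lower and 6.1% higher. The part of these lists in the lower Abca9 and Abca6 was not tested.

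In PMN-MDSC from tumor, Abca9 was lower after treatment by a smaller factor. Treated libraries held 72.8, 64.2, 70.2 and 32.7 CPM, all below the 105 CPM of the lowest untreated library. The pooled ratio was 2.13 (1.93 to 2.35), and edgeR gave a log2 fold change of -1.18 (SE 0.22, adjusted p = 0.0149), past 0.05 but not past the stricter rule. At 0.05, 1.07% of all genes were lower, 4.07% were lower without overlap, and 0.241% passed the stricter rule. Leaving out untreated library 1 or untreated library 3 moved the adjusted p to 0.0546 and 0.0531, and a fit over all groups gave 0.197. The other 4 genes did not pass the filter. Abca6 held 8 counts in the untreated and 7 in the treated libraries, a ratio of 1.56 (0.496 to 5.07) that ran from 0.760 without untreated library 2 to 4.33 without treated library 4, so no difference was detectable at this depth. Abca5 held 19 and 8 counts, a ratio of 3.25 (1.36 to 8.59), with no call in the unfiltered edgeR fit (adjusted p = 0.528). Of the 8 treated counts, 6 came from library 3, without which the ratio was 10.4 (2.52 to 92.4). The dendritic cell list went from 2358 to 3110 down to 200 to 1162 CPM in these libraries, Ly6g went from 0 to 9.19 up to 5.02 to 76.2 CPM, and the red pulp macrophage list was at 3921 to 4989 against 3514 to 6937 CPM. A classical monocyte list went from 4269 to 8233 down to 2075 to 3374 CPM, a patrolling monocyte list from 1413 to 2016 down to 1005 to 1293 CPM, and a marginal zone macrophage list from 125 to 225 up to 378 to 835 CPM. These are summed levels. Of 6 classical monocyte markers tested, 2 were lower and 2 higher at an adjusted p under 0.05 by edgeR (median log2 fold change 0.73). Of all genes, 1.07% were lower and 2.29% higher. Among 5 patrolling monocyte markers tested 0 were called (median 0.30). The part of these lists in the lower Abca9 was not tested.

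The difference between the treatment effects in tumor and spleen was fitted as an interaction over the 4 groups of PMN-MDSC, a comparison added after the data had been seen. For Abca9 it was 2.67 on the log2 scale (SE 0.90, adjusted p = 0.124 by edgeR), meaning a smaller fall in tumor, and it was not called at 0.05. Of all genes, 3.5% were called. Without treated spleen library 2 the value was 4.64 (adjusted p = 0.0506), and without untreated spleen library 1 it was 1.78 (adjusted p = 0.194). In untreated mice, Abca9 was higher in PMN-MDSC from tumor than in those from spleen, by 1.88 on the log2 scale (SE 0.47, adjusted p = 0.00605 by edgeR). The same call was made for 59.1% of all genes, so it does not set Abca9 apart. Without untreated spleen library 1 the value was 2.82 (adjusted p = 2.9e-06). The labels number the mice of spleen and tumor alike, which neither of these fits takes into account.

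M-MDSC from tumor gave no call. The 3 treated libraries held 23.2, 168 and 38.7 CPM of Abca9, so libraries 1 and 3 lay below every untreated library and library 2 above them. The log2 fold change was -0.73 (SE 0.58, adjusted p = 0.556 by edgeR), with 0.012% of all genes passing the stricter rule and 2.88% passing 0.05. Without treated library 2 it was -2.02, with an adjusted p of 0.00686 by edgeR. That library also had less of the interferon-stimulated gene Isg15 (38.1 CPM against 142 and 167) and fewer counts of the neutrophil list (6.89 CPM against 402 and 694). Its dendritic cell list stood at 2097 CPM against 404 and 465. Over the whole groups, classical monocyte markers went from 8502 to 11823 down to 1915 to 5337 CPM, and marginal zone macrophage markers from 121 to 243 up to 640 to 816 CPM and endothelial markers from 20.2 to 44.5 up to 75.8 to 160 CPM. The part of these differences in its Abca9 level was not tested. Abca6 held 2, 0 and 8 counts in the treated and 5, 9, 30 and 3 in the untreated libraries, a pooled ratio of 5.76 (2.87 to 12.8), with library 2 at 0. In the unfiltered edgeR fit its log2 fold change was -2.24 (SE 0.79, adjusted p = 0.0894), which was not called. Without library 2 the ratio was 3.11 (1.55 to 6.89) and the log2 fold change -1.51 (adjusted p = 0.475 by edgeR), and without library 3, which holds 8 of the 10 treated counts, the ratio was 20.5 (5.38 to 175). Among the treated tumor M-MDSC, the library with the most Abca9 was thus the 1 with no count of the neighboring Abca6.

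Among untreated tumor cells, the M-MDSC and PMN-MDSC gates held Abca9 at overlapping levels, and no difference was called. The log2 difference of M-MDSC against PMN-MDSC was -0.19 (SE 0.18, adjusted p = 0.533 by edgeR), where 13.0% of all genes differed at 0.05 and 1.65% passed the stricter rule. Pooled counts gave a ratio of 0.895 (0.818 to 0.979). Abca6 was higher in M-MDSC, with 47 counts against 8 and a ratio of 6.18 (2.90 to 15.2), or 12.7 (4.10 to 64.0) without library 2 of the PMN-MDSC, which holds 5 of the 8. It did not pass the filter, and without the filter its log2 difference was 2.37 (SE 0.74, adjusted p = 0.0281 by edgeR), at a threshold of 0.05 that 2.42% of genes passed upward in that fit and short of the stricter rule that 2.12% of genes passed there. Abca5 went the other way, with 3 counts in M-MDSC and 19 in PMN-MDSC, a ratio of 0.166 (0.0315 to 0.565), and was not called in the unfiltered edgeR fit (adjusted p = 0.209). The labels number the untreated mice of both gates alike, so the cells came from the same mice, which the fit does not take into account.

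Bulk tumor differed from the MDSC sorted out of such tumors in which genes of the cluster it held. Abca5 was at 20.6, 25.2, 29.4 and 23.6 CPM in bulk tumor and at 0.550, 0.674, 0.277 and 0 CPM in M-MDSC from tumors of untreated mice, with no overlap. The pooled ratio was 63.6 (21.7 to 309), and the log2 difference was 5.70 (SE 0.42, adjusted p = 3.8e-07 by edgeR). Abca5 passed the filter on low counts only through the 718 counts of bulk tumor, against 3 in M-MDSC, so a difference was set by its entry and the call is no support beyond the levels. Against untreated PMN-MDSC from tumor, at 0.40 to 3.64 CPM, the ratio was 10.6 (6.72 to 17.7). Abca9 was lower in bulk tumor, by a log2 difference of -3.25 (SE 0.20, adjusted p = 1.2e-07 by edgeR), also with no overlap. Both passed the stricter rule, as did 41.9% of all genes, and 24.7% of genes were lower and 40.4% higher without overlap. With shares of that size, the calls do not set Abca5 and Abca9 apart from other genes. Abca6 held 3, 0, 4 and 6 counts in bulk tumor, and without the filter its log2 difference was -3.62 (SE 0.62, adjusted p = 3.3e-08 by edgeR), a rule that 24.3% of genes passed in that fit. Bulk tumor was lysed directly and the MDSC were sorted, so preparation and cell content cannot be told apart. It held 927 to 1190 CPM of a fibroblast list and 4014 to 5921 CPM of a tumor epithelium list.

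The other 11 ABCA genes give the family background. Abca1, which exports cholesterol and phospholipid to apolipoproteins, was well counted, at mean levels of 20.4 CPM in untreated and 54.6 CPM in treated M-MDSC from spleen, the opposite direction to Abca9, though untreated libraries reached 25.3 CPM and treated ones began at 23.6 CPM. Abca3, by contrast, was lower there after treatment, at 159, 193, 153 and 168 CPM in the untreated and 115, 116, 113 and 89.8 CPM in the treated libraries, which did not overlap. Of the 5 tested in each treatment comparison, 1 fell at an adjusted p under 0.05 in PMN-MDSC from spleen, where 5.52% of all genes fell, and 0 rose, where 6.1% did. In tumor PMN-MDSC 0 of 5 changed, beside 3.36% of all genes, and in tumor M-MDSC 0 of 5, beside 2.88%, so a count of 0 sets the family apart in neither. The gene that fell was Abca3, which loads phospholipid into lamellar bodies of lung cells: it went from 71.6, 66.2, 67.1 and 63.6 to 24.3, 17.1 and 19.1 CPM, a log2 fold change of -1.45 (SE 0.19, adjusted p = 0.00398 by edgeR). The median log2 fold change of the tested family members was 0.15 there, 0.02 in PMN-MDSC from tumor and -0.49 in M-MDSC from tumor, against 0.01, 0.01 and 0.00 over all genes. In bulk tumor against M-MDSC, 2 of 4 tested passed the stricter rule, where 41.9% of all genes passed it (median log2 difference of the 4 -1.54, against 0.17 over all genes). Both were lower, Abca1 by a log2 difference of -2.54 and Abca7, a phagocytosis-related transporter, by -3.16.

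Of the 7 protein-coding genes that start within 500 kb of the cluster, 3 or 4 could be tested in each treatment comparison. Prkar1a, which encodes a regulatory subunit of protein kinase A, was counted at 150 to 231 CPM in spleen PMN-MDSC, and its log2 fold change after treatment was -0.04 there and -0.09 in splenic M-MDSC. Among splenic PMN-MDSC 4 of the 7 were tested: 0 fell and 1 rose, the sulfatase gene Arsg (log2 fold change 1.02, adjusted p = 0.0362 by edgeR), with a median of 0.78 over the 4. Of all genes, 5.52% fell and 6.1% rose there. In tumor, 0 of 4 in PMN-MDSC and 0 of 3 in M-MDSC changed at 0.05, beside 3.36% and 2.88% of all genes. So few genes at such shares say little about the neighborhood. Map2k6, a kinase of the p38 pathway and the gene beyond Abca5, was too low to test in M-MDSC from spleen, at 10.0, 7.43, 12.4 and 8.81 CPM in the untreated and 4.73, 1.16, 4.73 and 2.65 CPM in the treated libraries, which did not overlap. It was also too low to test in splenic PMN-MDSC, at 8.22, 1.99, 2.03 and 3.21 CPM in the untreated and 1.28, 0.371 and 0.36 CPM in the treated libraries, again without overlap. Lower levels without overlap were found for 16.6% of all genes tested in M-MDSC and 24.2% in PMN-MDSC from spleen.

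**Figure D4:**
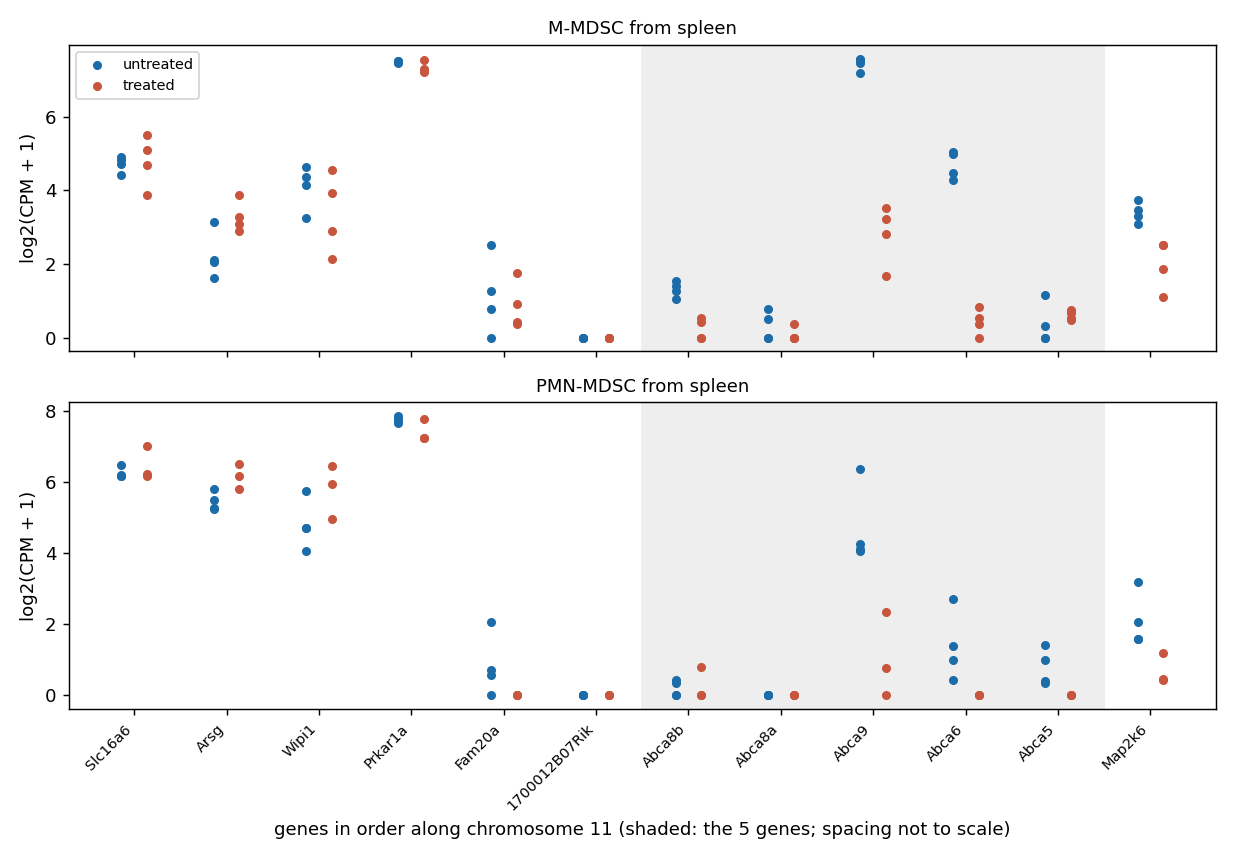
Log2(CPM + 1) of the 5 cluster genes and their 7 flanking genes in chromosome order, with a point for each untreated and treated library of M-MDSC and PMN-MDSC from spleen. Abca9 and Abca6 separate by treatment in M-MDSC (log2 fold changes of -4.55 and -5.92), while Prkar1a lies at the same level (-0.09).

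Genes whose pattern was most like that of the cluster were ranked by Pearson's r with the log2 summed level of the 5 genes over the 30 MDSC libraries, among 8532 genes. The 10 closest were Tmem176b (r = 0.946), Deptor (0.943), Pkdcc (0.928), Rassf8 (0.921), Chd3 (0.920), Tmem176a (0.919), Stard9 (0.918), Cd74 (0.917), H2-Ab1 (0.916) and H2-Aa (0.913). Cd74, H2-Ab1 and H2-Aa encode the invariant chain and chains of MHC class II, and H2-Ab1 and H2-Aa are also in the dendritic cell list. Libraries of a group share treatment, compartment and gate, so these values describe the groups as much as single libraries, and 4 of the 10 remained among the closest 10 with ranks in place of Pearson's r or within the 15 M-MDSC libraries. Both sets of libraries include the spleen M-MDSC whose contrast chose the genes, so the values of r here are a description only. The closest gene to Abca9 alone was Tmem176b (0.949). Abca6 had a looser neighborhood, led by Ifngr1 (0.799), the receptor chain for interferon gamma, and Mycbp2 (0.793). For Abca5 the closest was Nf1 (0.675), for Abca8b Dcun1d1 (0.631) and for Abca8a Ccnt1 (0.562), genes ranked against counts that were mostly under 10. The level of Abca9 went with the dendritic cell list at r = 0.906 and with the red pulp macrophage list at r = 0.493 over the same 30 libraries. H2-Aa and H2-Ab1, which monocytes and macrophages can also express, made up 21.8% to 93.1% of the summed dendritic cell list (median 68.5%), and with them left out of the list its r was 0.561. Without the pair of libraries that stood apart, r was 0.903 for the dendritic cell list, 0.534 for that list less H2-Aa and H2-Ab1 and 0.461 for the red pulp macrophage list over 28 libraries, and 8 of the 10 closest genes stayed among the closest 10.

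**Figure D5:**
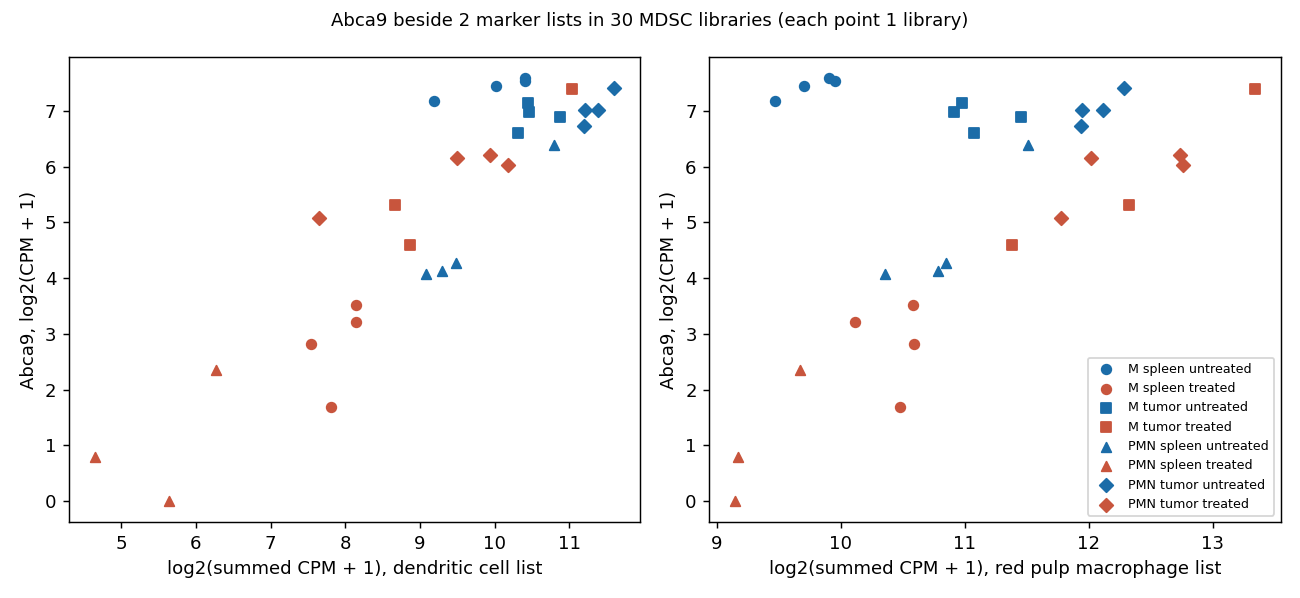
Log2(CPM + 1) of Abca9 on the vertical axis against the log2 summed CPM of the dendritic cell list and of the red pulp macrophage list, with a point for each of the 30 MDSC libraries. Points rise together with the dendritic cell list (r = 0.906) and scatter more with the macrophage list (r = 0.493), where treated M-MDSC from spleen lie low on Abca9.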

How the data were processed

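Libraries were prepared from rRNA-depleted total RNA with a stranded low-input kit. The deposited values are raw counts, which the authors made from fragments mapped to mm10 (GRCm38) with ContextMap and BWA and counted by strand with featureCounts (Subread 1.4.6-p3) on Gencode v16. Symbols, positions and exon lengths came from GENCODE M21 by Ensembl identifier. The deposited columns were placed in groups by the cell, compartment and treatment in their names. Libraries under 1000 counts were left out (1 of 35). In 48 pairs of libraries of a group, a chi-square test of their counts gave 6.19 to 49.5 per degree of freedom, so none was a copy. CPM is the count scaled to the library total.

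Each comparison was fitted on its own libraries with edgeR 4.0.16 in R 4.3.3 (TMM, robust quasi-likelihood F-test, two-sided), where a gene averaged 25 counts or more, with Benjamini-Hochberg adjustment over all of them. SE was derived from the F statistic. Scripts were tested on simulated data. Whether libraries of a group are separate mice is given by the labels, and p-values measure the spread between libraries. Alternatives were DESeq2 1.42.0, another scaling of the libraries (RLE size factors), no filter, a threshold of 0.05, a fit over all groups and leaving out each library. The members and gene lists were chosen with earlier results of these data known. Named genes were the 5 members, other Abca genes, protein-coding genes within 500 kb, and the genes closest by correlation (10 for the sum, 3 per member, of which the leading ones are given). Gm11697, Ifit3, Isg15 and Oas1g and single marker genes were named in addition. Tumor against spleen in PMN-MDSC, its interaction with treatment, count ratios without single libraries, values without the libraries that stood apart and the sequence searches were added after seeing the data. The engineered alleles of the tumor line are not reported here.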

Additional observations from a re-analysis of the deposited data

Results flagged for a closer look

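Each gene, and the sum of the 5, was examined in each group of 4 libraries, which gave 41 sets. In 8 of them the highest library lay farther from the others than Dixon's 95% limit. That limit assumes normal values, which counts near 0 are not, and the sets share libraries. The number flagged can thus not be set against a rate of chance. PMN-MDSC from spleens of untreated mice had 1 library with 82.8 CPM of Abca9 from 312 counts and 88.9 CPM of the 5 genes together from 335 counts. The same library had 1783 CPM of the dendritic cell list and 175 CPM of an erythroid list (59.3 to 115 CPM in the others), and the part of these in its level was not tested. The other 6 rest on 1 to 6 counts. In PMN-MDSC from tumors of untreated mice, 1 library each stood out with 2.71 CPM for Abca6 (5 counts), 2.71 CPM for Abca8a (5 counts) and 1.08 CPM for Abca8b (2 counts). In PMN-MDSC from tumors of treated mice Abca5 reached 2.74 CPM (6 counts). Abca8a reached 1.65 CPM (3 counts) in M-MDSC from tumors of untreated mice and 0.291 CPM (1 count) in M-MDSC from spleens of treated mice.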

How the results depend on the processing

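The number of genes called, at an adjusted p-value of 0.001 and a 2-fold change unless another threshold is named, moved with most settings. In M-MDSC from tumor it was 1 with edgeR as described, 215 with DESeq2, 449 with no filter, 220 at a threshold of 0.05, 101 in a fit over all groups and 0 to 13 with each library left out. In PMN-MDSC from spleen it was 3, then 517, 789, 703, 487 and 0 to 39 in the same order. In PMN-MDSC from tumor it was 20, then 193, 314, 223, 61 and 0 to 47. For M-MDSC against PMN-MDSC it was 126, then 388, 579, 488, 61 and 53 to 190, and for bulk tumor 4619, then 5497, 7193, 5909, 5026 and 3730 to 4780. With RLE size factors the counts hardly moved, at 1, 3, 20, 131 and 4715 in the order of comparisons above. The cause of the other moves was not tested. The direction of Abca9 was kept under every alternative run. In PMN-MDSC from spleen Abca9 missed the stricter rule with edgeR as described and with RLE size factors (-3.88, adjusted p = 0.0399 by edgeR). It passed with DESeq2 (-3.95), with no filter (-3.82) and in a fit over all groups (-3.91). So did 517 of 7261, 789 of 27640 and 487 of 7261 genes, in that order. It passed the 0.05 threshold (-3.88), as did 703 of 7261 genes. The log2 fold change was -5.81 to -2.95 when each library was left out. In PMN-MDSC from tumor Abca9 missed the stricter rule as described, with RLE size factors (-1.19, adjusted p = 0.0149 by edgeR) and in a fit over all groups. It passed with DESeq2 (-1.19), with no filter (-1.14) and at 0.05 (-1.18), where 193, 314 and 223 genes passed. The log2 fold change was -1.28 to -1.02 with each library left out. In M-MDSC from tumor it was -2.02 to -0.31 with each library left out, and for M-MDSC against PMN-MDSC -0.28 to -0.06. With TMM scaling the summed level in untreated M-MDSC from spleen was 171 CPM in place of 201. Of the 10 genes most like the cluster, 4 were kept with Spearman's rho and 4 within M-MDSC. No paired analysis was possible because the deposited columns carry running numbers that do not name the mouse, so libraries of different gates or compartments could not be matched. Depth limits Abca8a, Abca8b and, in most MDSC groups, Abca5 and Abca6 to a few counts.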
